A study of Mus musculus with 24 samples.

Results

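The genes described here are those of 2 nuclear steroid receptors, the estrogen receptor alpha gene Esr1 and the progesterone receptor gene Pgr, and of 3 secreted or membrane proteins known as estrogen-regulated in other tissues, Stc2, Ramp3 and Areg. They were chosen by name, with earlier results of these data known, and are 5 of the 38321 gene IDs counted in each library. All 5 were present in every table, and all 5 passed the low-count filter in both tissues. The study compared gene expression in periodontal tissues of wild-type female C57BL/6J mice, aged 11 weeks when the work began, after loss and after replacement of ovarian estrogen. All mice, controls included, carried ligature-induced periodontitis: a silk thread was tied around the second upper molar on both sides on day 7, and tissue was taken on day 14. Sham mice had sham surgery on day 0 and daily corn oil from day 4, OVX mice had both ovaries removed and received the same vehicle, and OVXE2 mice had both ovaries removed and received estradiol benzoate under the skin at 1 µg per day in 100 µL of oil. Poly(A) RNA was sequenced from gingiva around the upper molars and from the dentoalveolar complex (DAC), the tooth-bearing bone freed of soft tissue but still holding its teeth. There were 4 libraries per group and tissue, 24 in all, and no comparison here is with tissue free of a ligature.

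Estrogen enters cells and binds receptors of the nuclear receptor family, of which the Esr1 product is the main one in the reproductive tract and in bone. The bound receptor attaches to DNA at estrogen response elements or to other transcription factors already there, and Pgr is one of the best-known genes that it raises. Bone-forming cells, osteoclasts, marrow stroma and gingival cells are all known to respond to estrogen, and the loss of ovarian estrogen leads to bone loss. Stc2 encodes stanniocalcin 2, a secreted glycoprotein that blocks the protease PAPP-A and so limits the release of insulin-like growth factors. Ramp3 encodes a single-pass membrane protein that joins the calcitonin receptor-like receptor and turns it into a receptor for adrenomedullin. Areg encodes amphiregulin, a ligand of the epidermal growth factor receptor.

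The 250 bases before the RefSeq transcription start are shown for the members whose counts changed and for Areg, whose window held a motif that few promoters have. Sequences are from the RefSeq promoter table for build GRCm38.p6, 5′ to 3′ on the strand of the gene, at chr9:8899583-8899832 (plus strand) for Pgr, chr11:31370062-31370311 (minus strand) for Stc2, chr10:4611739-4611988 (plus strand) for the upstream start of Esr1 and chr5:91139349-91139598 (plus strand) for Areg. Capitals mark the motif matches described after the sequences.
Pgr: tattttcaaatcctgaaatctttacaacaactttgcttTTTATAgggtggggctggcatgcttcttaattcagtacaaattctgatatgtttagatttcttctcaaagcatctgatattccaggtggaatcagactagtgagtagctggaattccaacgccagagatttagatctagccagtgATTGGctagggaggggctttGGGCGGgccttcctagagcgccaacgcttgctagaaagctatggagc
Stc2: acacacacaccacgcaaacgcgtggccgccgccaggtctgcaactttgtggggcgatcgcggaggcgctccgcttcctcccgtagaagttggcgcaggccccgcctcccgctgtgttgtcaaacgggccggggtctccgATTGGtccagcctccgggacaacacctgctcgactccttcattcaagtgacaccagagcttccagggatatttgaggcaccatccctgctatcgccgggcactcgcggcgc
Esr1: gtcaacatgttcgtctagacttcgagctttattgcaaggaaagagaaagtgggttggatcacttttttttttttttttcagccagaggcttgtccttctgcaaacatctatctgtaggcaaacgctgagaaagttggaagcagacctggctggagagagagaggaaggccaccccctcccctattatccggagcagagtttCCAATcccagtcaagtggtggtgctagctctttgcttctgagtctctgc
Areg: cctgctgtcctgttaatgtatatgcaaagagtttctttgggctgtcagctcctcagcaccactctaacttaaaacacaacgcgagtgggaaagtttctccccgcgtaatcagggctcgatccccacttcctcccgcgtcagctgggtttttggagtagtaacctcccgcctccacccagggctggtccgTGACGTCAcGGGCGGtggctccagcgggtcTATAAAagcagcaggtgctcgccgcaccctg
Each window was searched on both strands for the estrogen response element (the arm GGTCA, any 3 bases and the arm's reverse complement TGACC), the GGTCA arm alone, the cyclic AMP response element TGACGTCA, the AP-1 site TGANTCA, the GC box GGGCGG, the TATA box TATAAA and the CCAAT box CCAAT. The GGTCA arm is part of the full element, so the first pair of motifs overlap by construction. None of the 6 windows of the 5 genes (Esr1 has 2 starts in the table) held the full element, which 0.0639% of 32851 promoter windows of the same length held, or the GGTCA arm, which 35.2% held. Areg held TGACGTCA 61 bases before its start, a motif found in 1.55% of windows, with a GC box at 52 and TATAAA at 31 bases. In Pgr a GC box lay 47 bases before the start, a CCAAT box on the opposite strand 67 bases and a TATA box on the opposite strand 212 bases before it. Stc2 held 1 CCAAT box, on the opposite strand 111 bases before its start, and 24 CpG pairs against a median of 6 over all windows. Esr1 held 1 CCAAT box 49 bases before the upstream start and no match before its other start, and Ramp3 held 3 GC boxes at 78, 35 and 24 bases, a motif in 32.7% of windows. These are letter matches in a short window, and elements outside it were not searched.

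The members are protein-coding genes whose positions, by GENCODE M21 on GRCm38, are chr10:4611593-5005614 (plus) for Esr1, chr9:8899833-8968611 (plus) for Pgr, chr11:31357307-31370074 (minus) for Stc2, chr11:6658521-6677475 (plus) for Ramp3 and chr5:91139599-91148432 (plus) for Areg. Counts are summed over the exons of each gene. Ramp3 overlaps the pseudogene Gm11978 on the minus strand, and no other member overlaps an annotated gene. Reads on the other strand than that counted made up 10.01% of Pgr reads in gingiva and 15.2% in the DAC, and 1.64 to 7.75% of the reads of the other members. Their source was not tested, and counts of either strand are among the alternatives.

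Library totals ran from 18598422 to 26001342 gene counts in gingiva, against 14771830 to 29248358 in the DAC. Keratinocyte markers took 9.56 to 11.6% of counts in gingiva and 0.122 to 1.09% in the DAC. Osteoblast and osteocyte markers took 6.04 to 8.75% in the DAC and 0.188 to 0.586% in gingiva. Both lists thus took their larger share in the tissue of their label. The osteoblast list includes the collagen gene Col1a1, as the fibroblast and odontoblast lists do, so its sum is not particular to bone cells. In the DAC, OVX 1 stood apart with 13.6% of its counts in nasal gland markers against 0.181 to 2.07% in the other 11 libraries. OVXE2 1 had 1.09% in keratinocyte markers against 0.122 to 0.468%, and Sham 2, the shallowest library, had 0.0445% in brain neuron markers against 0.00491 to 0.0176%. Results that rest on these libraries are given with and without them.

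Which of the genes is expressed where differed between the tissues. Levels can be compared between genes only per length, so CPM (the reads of a gene relative to the TMM-scaled library total) were divided by exonic length in kilobases with all 24 libraries scaled together. That length merges all annotated exons of a gene, 13661 bases for Esr1 and 1215 for Areg, and can exceed that of a transcript. The order between genes rests on this choice. In gingiva the length-scaled level was highest for Areg, at a median of 9.66 CPM per kb over 12 libraries, followed by Pgr at 2.94, Stc2 at 1.90, Ramp3 at 1.05 and Esr1 at 0.233. Areg stood above Pgr and Ramp3 above Esr1 in 12 of 12 gingival libraries, but Pgr exceeded Stc2 in 9 and Stc2 exceeded Ramp3 in 10, so these neighbours overlapped. In the DAC the order was Ramp3 at 5.73, Stc2 at 3.30, Areg at 1.76, Esr1 at 1.32 and Pgr at 0.111 CPM per kb. Ramp3 exceeded Stc2 in 11 of 12 DAC libraries, and Esr1 exceeded Pgr in 12. Stc2 exceeded Areg in 8 DAC libraries and Areg exceeded Esr1 in 8, so the middle of the order was not fixed. The progesterone receptor gene was thus near the top in gingiva and at the bottom in the DAC, and the Esr1 level was the lowest of the 5 in gingiva.

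**Figure D1:**
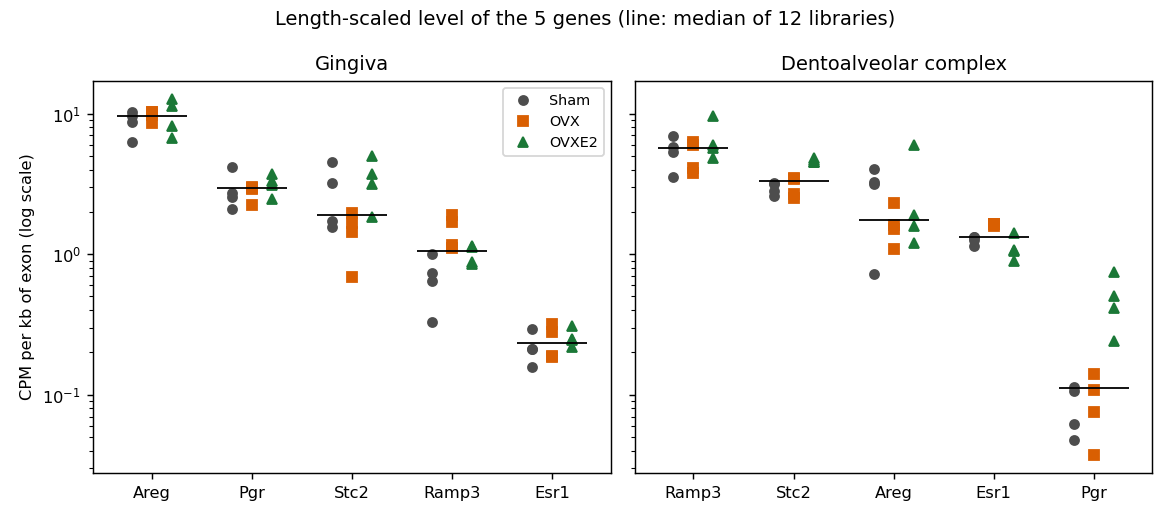
Level of the 5 genes in CPM per kb of exon (log axis) in each of 12 gingival and 12 DAC libraries, with Sham as circles, OVX as squares, OVXE2 as triangles and the median of the tissue as a line. Areg is highest in gingiva with a median of 9.66 and Ramp3 in the DAC with 5.73, and the Pgr median is 2.94 in gingiva and 0.111 in the DAC.

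The difference between DAC and gingiva passed the test for Esr1, Pgr, Ramp3 and Areg in each of the 3 groups, in a comparison where most genes did: 75.1% of genes were called in Sham, 72.4% in OVX and 72.1% in OVXE2. Esr1 was higher in the DAC by 2.52 ± 0.19 (SE) on the log2 scale in Sham, 2.74 ± 0.19 in OVX and 2.12 ± 0.18 in OVXE2. Ramp3 was higher in the DAC by 2.99 ± 0.31, 1.78 ± 0.29 and 2.70 ± 0.30 in the same order. Both genes had all 4 DAC values above all 4 gingival values in each group, as 36.6% of genes did in Sham, 34.8% in OVX and 33.5% in OVXE2. Pgr was lower in the DAC, with log2 differences of −5.14 ± 0.37 in Sham, −4.92 ± 0.36 in OVX and −2.72 ± 0.31 in OVXE2. Areg was lower in the DAC too, by −1.66 ± 0.44, −2.57 ± 0.45 and −1.86 ± 0.44. Stc2 had a like level in both tissues in Sham, with a log2 difference of 0.10 ± 0.31 (edgeR adjusted p = 0.777). It was higher in the DAC in OVX by 1.06 ± 0.32 (edgeR adjusted p = 0.00537) and did not pass in OVXE2, at 0.44 ± 0.31 (edgeR adjusted p = 0.204). That group-by-group contrast of Stc2 did not pass when tested. The tissue difference of its OVX against Sham change was 0.96 ± 0.44 on the log2 scale (edgeR adjusted p = 0.575).

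In the DAC, estradiol changed 3 of the 5 genes relative to vehicle after ovariectomy: Pgr and Stc2 rose and Esr1 fell, and the 4 values of each group did not overlap for any of these 3. The test called 2.13% of 13617 genes in this comparison, 0.676% as higher and 1.45% as lower, and 6.73% of genes had groups without overlap. Ramp3 and Areg did not pass. Because the members were chosen with earlier results of these data known, the share called among them is no test of estrogen targets as a class. Pgr and Stc2 were also higher than in Sham, where 1.05% of genes were called and 0.389% of all genes tested were called as higher, and 2.63% of genes had OVXE2 wholly above Sham as both did; Esr1 was not called against Sham. The comparisons of OVXE2 with OVX and with Sham share the OVXE2 libraries, so one does not repeat the other.

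**Figure D2:**
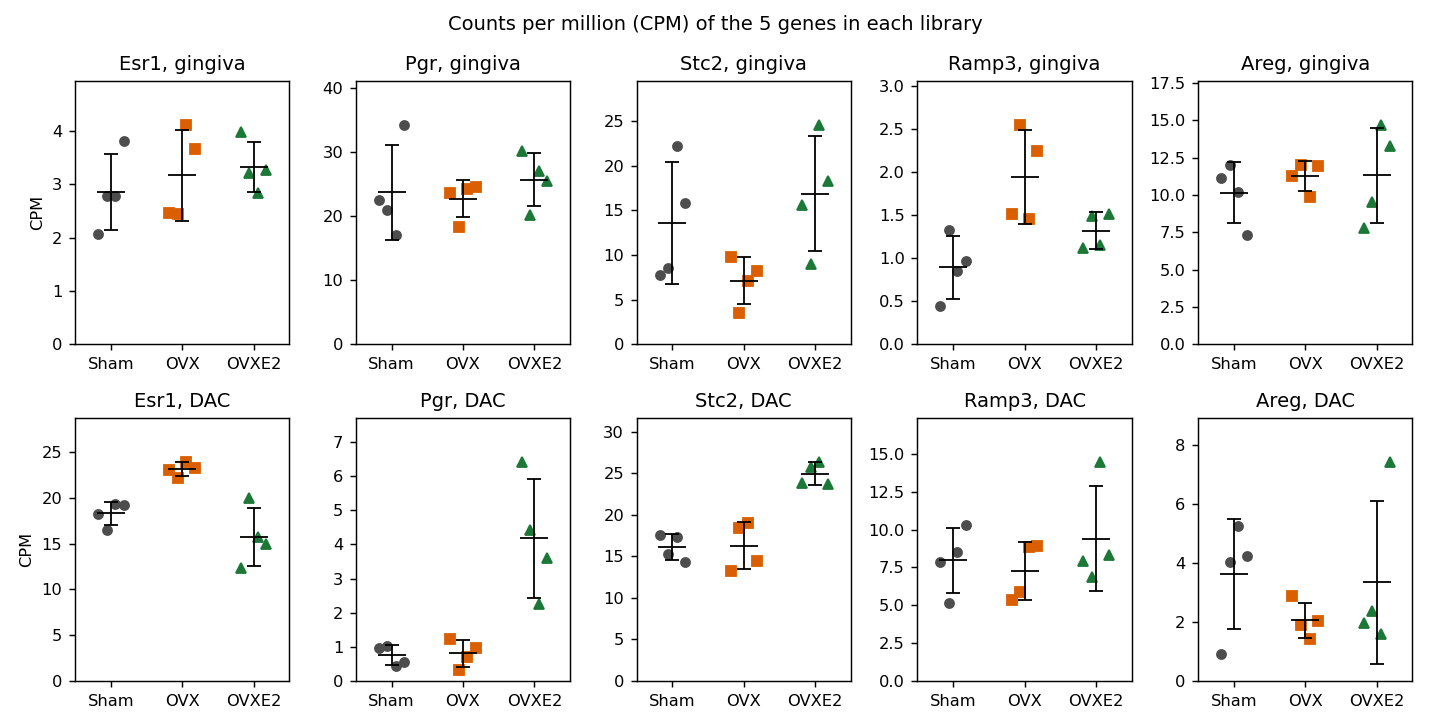
CPM of Esr1, Pgr, Stc2, Ramp3 and Areg in each of 4 libraries per group (points), with the group mean and SD (bars), in gingiva (upper row) and DAC (lower row). Axes start at 0 and differ between panels. The 4 DAC OVXE2 values of Pgr (2.25 to 6.43) and of Stc2 (23.7 to 26.4) lie above all Sham and OVX values.

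Pgr, the receptor for progesterone, gave the widest difference of the 5. In the DAC it measured 6.43, 4.43, 2.25 and 3.61 CPM in OVXE2 libraries 1 to 4. The OVX libraries measured 1.24, 0.328, 0.695 and 0.964 CPM, and the Sham libraries 0.970, 1.03, 0.437 and 0.563. Every OVXE2 value was above every other DAC value, and the Sham range lay within that of OVX. These levels are low: the reads behind them numbered 8 to 31 per OVX library, 9 to 24 per Sham library and 50 to 183 per OVXE2 library. Means were 4.18 ± 1.75 CPM (SD, n = 4) in OVXE2, 0.806 ± 0.388 in OVX and 0.749 ± 0.293 in Sham. Against OVX, Pgr rose 5.15-fold, a log2 change of 2.37 ± 0.45 (SE, edgeR adjusted p = 0.0183). Against Sham it rose 5.58-fold, by 2.48 ± 0.45 on the log2 scale (edgeR adjusted p = 0.0265). OVX and Sham differed by 0.11 ± 0.45 (edgeR adjusted p = 0.952). At its OVXE2 level the DAC still held less Pgr than gingiva, 4.07 against 27.0 CPM when all 24 libraries were scaled together.

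The call of Pgr depended on single libraries and on settings. Over 21 alternatives the log2 change against OVX stayed between 2.08 and 2.64, and the call was lost in 6 of them, among them without OVX 3 (edgeR adjusted p = 0.0661), without OVX 4 (0.0538) and without OVXE2 1 (0.0594). Against Sham the log2 change ranged from 2.20 to 2.68 and the call was lost in 10 of 21, among them without any 1 Sham library and without OVXE2 1, 2 or 4 (edgeR adjusted p from 0.0547 to 0.0958). Pgr also lost its call with fewer libraries in the fit: without the 4 DAC libraries richest in brain neuron markers (Sham 2, Sham 4, OVX 1 and OVXE2 2) its log2 change against OVX was 2.61 (edgeR adjusted p = 0.0986), and with only libraries that had at least 5% of gene reads on the other strand the adjusted p was 0.212. In these settings 1 member (Esr1) and 0 members were called against OVX, and none against Sham.

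Gingiva has a high Pgr level and is rich in keratinocytes, and the DAC library with the most Pgr, OVXE2 1, also had the largest keratinocyte marker share, 1.09%. The other 3 OVXE2 libraries had 0.155 to 0.299% and Pgr at 2.25 to 4.43 CPM, while OVX 1 and OVX 4 had 0.468 and 0.462% with Pgr at 1.24 and 0.964 CPM. Without OVXE2 1 the log2 change of Pgr against OVX was 2.08. All 6 listed keratinocyte markers were detected in every DAC group, and their median log2 difference was 0.58 for OVXE2 against OVX and 0.64 against Sham, the direction of Pgr, with none called. The part of these markers in the Pgr result was not tested.

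Esr1, the receptor that binds the injected hormone, moved the other way in the DAC. It measured 12.3, 19.95, 15.7 and 15.01 CPM in OVXE2 libraries 1 to 4. The OVX libraries measured 23.1, 22.2, 23.99 and 23.3 CPM and the Sham libraries 18.3, 16.5, 19.3 and 19.2. All OVX values were above all Sham and all OVXE2 values, whereas OVXE2 2 lay above every Sham library. Means were 15.8 ± 3.16 CPM (SD, n = 4) in OVXE2, 23.2 ± 0.726 in OVX and 18.3 ± 1.28 in Sham. Against OVX, Esr1 fell with a log2 change of −0.56 ± 0.12 (SE) and an edgeR adjusted p of 0.0445, close to the threshold of 0.05. Against Sham the log2 difference was −0.22 ± 0.12 (edgeR adjusted p = 0.694). OVX exceeded Sham by 0.34 ± 0.12 on the log2 scale without passing (edgeR adjusted p = 0.874). In that comparison 0% of 13617 genes were called by edgeR, 437 had an unadjusted p under 0.05, DESeq2 called 10, and 2.92% of genes had groups without overlap as Esr1 did. The call of Esr1 against OVX was lost in 16 of 21 alternatives, with the log2 change between −0.69 and −0.46. Among libraries, it was kept only without OVXE2 2 (edgeR adjusted p = 0.00721) and lost without each of the other 11 (0.0512 to 0.160).

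The DAC holds marrow, and in bulk tissue fewer cells of a type and less RNA per cell cannot be told apart. Markers of B cell precursors took 0.0199 to 0.0276% of counts in OVX, 0.0106 to 0.0158% in Sham and 0.00480 to 0.00741% in OVXE2, the same group order as Esr1. Mean shares in OVX, Sham and OVXE2 ran in that order for other lists too. Among them were immature neutrophils (0.375, 0.325 and 0.157%) and T and NK cells (0.00646, 0.00510 and 0.00357%). Mast cells and basophils had 0.00665, 0.00615 and 0.00524%. Of 8 listed B cell precursor markers 7 fell against OVX, with a median log2 change of −2.95 over the list, as did 9 of 10 listed markers of immature neutrophils, with a median of −1.65. So did 3 of 9 T and NK cell markers and 4 of 6 mast cell and basophil markers. Within OVXE2 the library with the most Esr1, OVXE2 2, had a B cell precursor share of 0.00601%, between those of the other 3. The part of these cell markers in the Esr1 result was not tested.

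**Figure D3:**
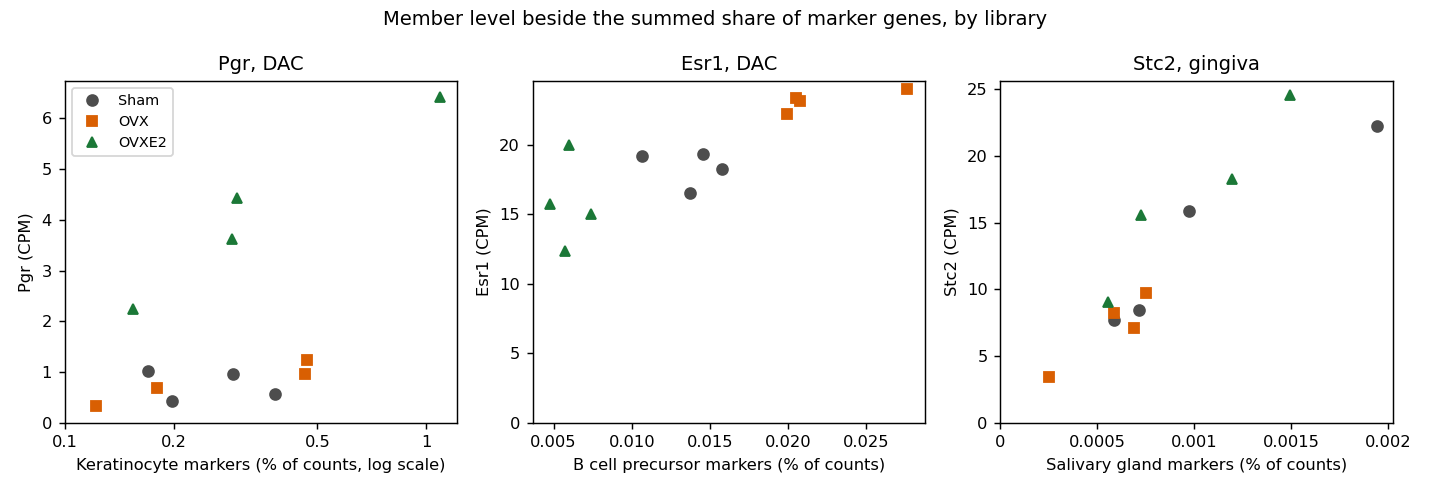
Member level in CPM against the summed share of marker genes in percent of gene counts, 1 point per library, for Pgr and keratinocyte markers in the DAC (log horizontal axis), Esr1 and B cell precursor markers in the DAC, and Stc2 and salivary gland markers in gingiva. OVXE2 1 stands out at 1.09% keratinocyte markers and 6.43 CPM of Pgr, and the 4 gingival libraries with the most Stc2 are those with the most salivary gland markers.

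Stc2, the secreted PAPP-A inhibitor, rose with Pgr in the DAC, by a smaller factor. It measured 23.8, 25.8, 26.4 and 23.7 CPM in OVXE2 libraries 1 to 4. The OVX libraries measured 13.3, 18.4, 18.96 and 14.5 CPM and the Sham libraries 17.5, 15.3, 17.4 and 14.4. OVXE2 stood above both other groups without overlap, and the range of Sham lay within that of OVX. Means were 24.9 ± 1.37 CPM (SD, n = 4), 16.3 ± 2.84 and 16.2 ± 1.56 in OVXE2, OVX and Sham. Stc2 rose 1.53-fold against OVX, a log2 change of 0.61 ± 0.12 (SE, edgeR adjusted p = 0.0232), and 1.54-fold against Sham, a log2 change of 0.63 ± 0.12 (edgeR adjusted p = 0.0356). OVX and Sham differed by 0.011 ± 0.12 (edgeR adjusted p = 0.983). Markers of endothelium rose in part in the same libraries: 4 of 13 were called as higher against OVX (Tek, Tie1, Kdr and Cdh5), and their summed share was 0.179 to 0.201% in OVXE2, 0.123 to 0.159% in OVX and 0.153 to 0.170% in Sham. Smooth muscle and pericyte markers took 0.0874 to 0.103% in OVXE2, above OVX (0.0623 to 0.0768%) and Sham (0.0703 to 0.0802%) without overlap, and 1 of 5 (Rgs5) was called as higher in both comparisons. Osteoclast markers took 1.04 to 1.18% in OVXE2, above OVX (0.582 to 0.963%) but overlapping Sham (0.916 to 1.12%). Their median log2 change against OVX was 0.40, with none of 9 called. The part of these vessel and osteoclast markers in the Stc2 and Pgr results, both of them highest in OVXE2 too, was not tested.

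The Stc2 change against OVX was between 0.51 and 0.70 over 21 alternatives, and its call was lost in 10, among them without OVX 1, OVX 4 or any 1 OVXE2 library (edgeR adjusted p from 0.0516 to 0.0834). Against Sham it was between 0.50 and 0.67 and lost in 12 of 21, among them without any 1 Sham library, OVX 4 or any 1 OVXE2 library (0.0509 to 0.114).

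**Figure D4:**
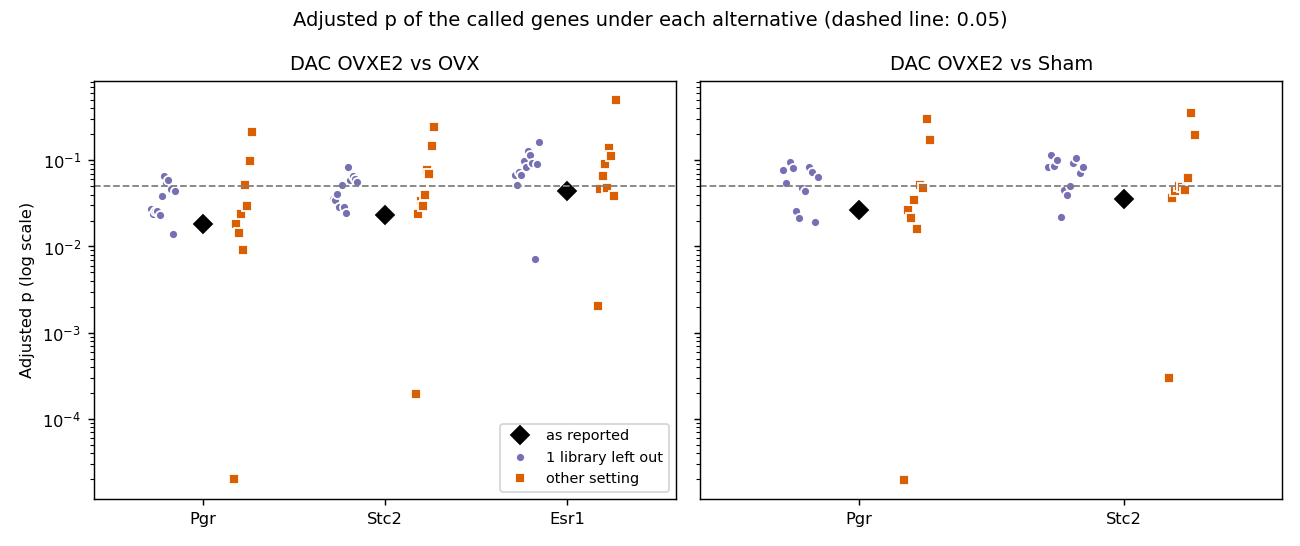
Adjusted p (log axis) of the members called in the DAC, as reported (diamond), with 1 library left out (circles) and under the other settings (squares). The dashed line is the 0.05 threshold. The reported values of 0.0183 to 0.0445 lie below it and, for each gene, some alternatives lie above it.

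Ramp3, the partner of the calcitonin receptor-like receptor, and Areg, the amphiregulin gene, did not pass any estradiol or ovariectomy comparison in the DAC. Ramp3 measured 7.94, 6.85, 14.5 and 8.35 CPM in OVXE2 libraries 1 to 4, 5.35, 5.86, 8.87 and 8.94 in OVX, and 7.88, 5.13, 8.54 and 10.3 in Sham. The groups overlapped, and OVXE2 3 alone lay above all others. Its log2 difference was 0.37 ± 0.28 (SE) for OVXE2 against OVX (edgeR adjusted p = 0.849), 0.24 ± 0.28 for OVXE2 against Sham (0.864) and −0.14 ± 0.28 for OVX against Sham (0.908). Areg measured 1.97, 2.38, 1.57 and 7.44 CPM in OVXE2, 2.87, 1.88, 1.43 and 2.03 in OVX, and 0.929, 4.04, 5.24 and 4.23 in Sham. OVXE2 4 was the highest and Sham 1 the lowest of the 12, and the groups overlapped. The log2 difference of Areg was 0.70 ± 0.57 against OVX (edgeR adjusted p = 0.873) and −0.050 without OVXE2 4. Against Sham it was −0.11 ± 0.56 (edgeR adjusted p = 0.968), and OVX differed from Sham by −0.81 ± 0.57 (0.874). Keratinocyte markers took 0.290% of counts in OVXE2 4 and 1.09% in OVXE2 1, where Areg was 1.97 CPM. Their part in the Areg values was not tested.

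In gingiva no member passed any of the 3 comparisons, and neither did any other gene: edgeR called 0% of 12680 genes in each. At an unadjusted p under 0.05 there were 1530 genes for OVX against Sham, 1766 for OVXE2 against OVX and 939 for OVXE2 against Sham, and DESeq2 called 44, 92 and 8. Pgr, high in this tissue, measured 30.2, 20.2, 26.9 and 25.4 CPM in OVXE2 libraries 1 to 4, 23.6, 18.3, 24.2 and 24.6 in OVX, and 22.5, 20.9, 17.1 and 34.2 in Sham. The 3 groups overlapped, with means of 25.7 ± 4.17, 22.7 ± 2.92 and 23.6 ± 7.38 CPM (SD, n = 4). The log2 difference of Pgr between OVXE2 and OVX was 0.18 ± 0.19 (SE, edgeR adjusted p = 0.706), against 2.37 in the DAC. Esr1 measured 3.97, 3.22, 2.83 and 3.26 CPM in OVXE2, 2.46, 2.44, 4.11 and 3.66 in OVX, and 2.07, 2.77, 2.77 and 3.81 in Sham. Its groups overlapped in each comparison, and its log2 differences were 0.066 ± 0.22 for OVXE2 against OVX (edgeR adjusted p = 0.922) and 0.15 ± 0.22 for OVX against Sham (0.805). The reads behind these values numbered 46 to 99 per library.

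Stc2 had the widest gingival fold of the members but also the largest standard errors on the log2 scale. It measured 15.6, 9.02, 24.5 and 18.3 CPM in OVXE2 libraries 1 to 4, 9.71, 3.45, 7.10 and 8.23 in OVX, and 7.70, 8.48, 22.2 and 15.8 in Sham. OVXE2 had 3 values above all OVX values, and the ranges met at OVXE2 2 and OVX 1. Against OVX the log2 difference was 1.24 ± 0.42 (SE, edgeR adjusted p = 0.304), and OVX lay −0.92 ± 0.42 from Sham (edgeR adjusted p = 0.414). Markers of salivary glands were at trace level in gingiva, 0.000253 to 0.00194% of counts, with Prol1 and Prb1 at 0 in every group and Smr3a at 0 in OVX and OVXE2. The libraries with the highest salivary gland share were Sham 3 (0.00194%), OVXE2 3 (0.00149%), OVXE2 4 (0.00119%) and Sham 4 (0.000973%), and these were also the 4 with the most Stc2. The lowest share (0.000253%) and the lowest Stc2 level both belonged to OVX 2. Nasal gland markers took a larger share in gingiva, from 0.00258% in OVX 2 to 0.0341% in OVXE2 3. Next highest were Sham 4 (0.0267%) and OVXE2 4 (0.0161%), while Sham 3 had 0.0108%, below OVXE2 2 (0.0110%). Their mean shares were 0.0173% in OVXE2, 0.0125% in Sham and 0.00472% in OVX. The part of either gland list in the Stc2 values was not tested.

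Ramp3 was the member nearest to a gingival call for ovariectomy. It measured 1.51, 2.54, 1.45 and 2.24 CPM in OVX libraries 1 to 4, 0.439, 1.33, 0.853 and 0.963 in Sham, and 1.12, 1.49, 1.15 and 1.51 in OVXE2. All OVX values were above all Sham values, as in 5.74% of genes in either direction, and OVXE2 overlapped both. The log2 difference between OVX and Sham was 1.10 ± 0.31 (SE, edgeR adjusted p = 0.376), on 11 to 54 reads per library over the 3 groups. OVXE2 lay −0.55 ± 0.30 from OVX (edgeR adjusted p = 0.416). Areg measured 7.78, 9.50, 14.7 and 13.3 CPM in OVXE2, 11.3, 11.98, 9.86 and 11.9 in OVX, and 11.1, 12.01, 10.2 and 7.32 in Sham. Its groups overlapped, and its log2 difference between OVXE2 and OVX was 0.0068 ± 0.20 (edgeR adjusted p = 0.992).

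**Figure D5:**
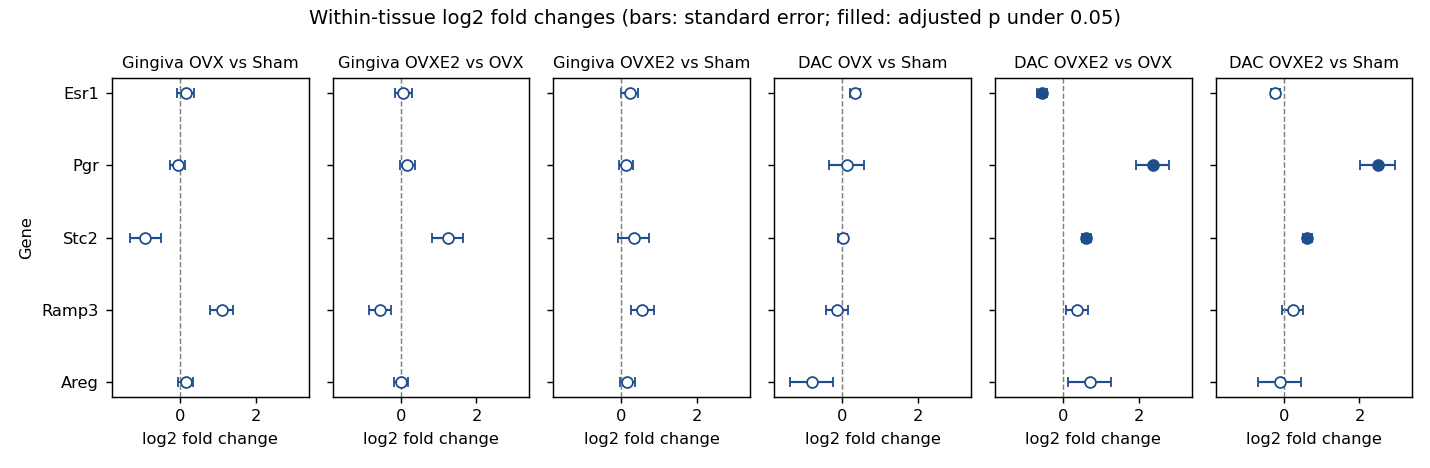
Log2 fold change with its standard error for the 5 genes in the 6 within-tissue comparisons, filled where the edgeR adjusted p was under 0.05. The filled points are Esr1 (−0.56), Pgr (2.37) and Stc2 (0.61) in the DAC for OVXE2 against OVX, and Pgr (2.48) and Stc2 (0.63) for OVXE2 against Sham.

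Whether an effect differed between the tissues was tested by the interaction of tissue and group over all 24 libraries, with differences given as DAC minus gingiva. For OVXE2 against OVX, Pgr was the called member: its log2 change was larger in the DAC by 2.20 ± 0.45 (SE, edgeR adjusted p = 0.0444), in a test that called 0.19% of 14209 genes, 0.0704% as larger in the DAC. For OVXE2 against Sham the difference of Pgr was 2.42 ± 0.46 (edgeR adjusted p = 0.0545), just above the threshold, in a test that called 0.0633% of genes. The Pgr interaction against OVX was 1.90 to 2.47 over 32 alternatives and lost its call in 20, among them without 17 of the 24 libraries taken 1 at a time (edgeR adjusted p from 0.0508 to 0.111). It kept its call without gingival Sham 3 or 4, or DAC Sham 1, 2 or 3, OVX 1 or OVXE2 3. The same difference was −0.62 ± 0.25 for Esr1 (edgeR adjusted p = 0.497), −0.62 ± 0.44 for Stc2 (0.717), 0.92 ± 0.41 for Ramp3 (0.539) and 0.71 ± 0.61 for Areg (0.771). Stc2 thus had a call in the DAC and none in gingiva without a called difference between the tissues, and its estimate was larger in gingiva. For OVX against Sham edgeR called 0% of genes as different between tissues (1212 at an unadjusted p under 0.05 and 0 by DESeq2), and Ramp3 had a difference of −1.21 ± 0.41 (edgeR adjusted p = 0.575).

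The other genes of the estrogen pathway were read from lists of symbols, of which only those listed in the tables could be analysed. Among 8 steroid and estrogen-related receptors tested in the DAC, Pgr rose and Esr1 fell for OVXE2 against OVX and the other 6 did not pass, with a median log2 change of 0.017 over the list and 0.021 over all genes. The 11 coregulators and chaperones had no call and a median of −0.043. None of the 6 genes of estrogen synthesis and metabolism passed.

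Of 27 other genes known as estrogen-responsive, 1 rose and 2 fell in the DAC for OVXE2 against OVX, with a list median of 0.12. Over all genes 0.676% were called as higher and 1.45% as lower, and the median was 0.021. Thbs1, which encodes the matrix glycoprotein thrombospondin 1, rose from 568 ± 74.9 to 937 ± 184 CPM (SD, n = 4), a log2 change of 0.72 ± 0.14 (SE, edgeR adjusted p = 0.0187). Myb, which encodes a transcription factor of early blood cells, fell with a log2 change of −2.19 ± 0.24 (edgeR adjusted p = 0.000666). Ltf, the lactoferrin gene that estrogen raises in the uterus and that immature neutrophils express, fell with a log2 change of −1.20 ± 0.26 (edgeR adjusted p = 0.0357). Against Sham, Thbs1 rose with a log2 change of 0.98 ± 0.14 (edgeR adjusted p = 0.00675) and Myb fell with one of −1.58 ± 0.24 (0.00921). The called genes of this list went both ways. Ltf is itself on the list of immature neutrophil markers and counts among those that fell. Markers of B cell precursors and immature neutrophils fell in the same libraries, as given beside Esr1, while none of 7 mature neutrophil and none of 8 erythroid markers passed. The part of these markers in the Myb and Ltf results was not tested.

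The lists around the 3 targets held few calls. Of 14 genes of the stanniocalcin and insulin-like growth factor list, Stc2 was the 1 called for OVXE2 against OVX in the DAC (list median 0.083). Against Sham the insulin receptor substrate gene Irs1 rose with it, from 71.9 ± 6.74 to 104 ± 13.9 CPM (log2 change 0.53 ± 0.10, edgeR adjusted p = 0.0352). None of 11 genes of endoplasmic reticulum stress passed for OVXE2 against OVX, with a list median of −0.11. Hspa5, the chaperone BiP of that response, was at 702 ± 64.1 CPM in OVXE2 and 867 ± 22.3 in OVX (log2 difference −0.30 ± 0.08, edgeR adjusted p = 0.110). The 10 tested genes of the calcitonin receptor family, with the list median at 0.092, had no call. Calcr, the calcitonin receptor gene of osteoclasts, was at 6.05 ± 2.02 against 3.21 ± 0.438 CPM (log2 difference 0.91 ± 0.29, edgeR adjusted p = 0.189). The 14 genes of the epidermal growth factor family, ligands, receptors and sheddases, had no call and a list median of 0.11. In gingiva edgeR called 0% of genes in each comparison, so none of the 8 lists could hold a called gene.

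Some genes varied over the 12 libraries of a tissue much as a member did. These are descriptions over libraries that share 3 groups, so a group difference common to both genes enters the coefficient. Each named coefficient is also among the highest of many over only 12 libraries, so selection alone raises it, and none was tested. In the DAC, over 10108 genes compared for Pgr and 10107 for each other member, the log2 CPM of Pgr was most like that of Mef2a (Pearson r = 0.93), Pi15 (0.93) and Tenm4 (0.92). Stc2 was most like Sdc3 (0.97), Gtf2i (0.96) and Slc12a4 (0.95), and Esr1 was most like Kmo (0.88), E2f2 (0.87) and Stx7 (0.87). Areg was most like Aldh1a3 (0.92), Sprr2g (0.90) and Il24 (0.89), and Ramp3 most like Zfp784 (0.98), Igbp1 (0.94) and Eef2 (0.93). In gingiva Stc2 had the closest companions of any member: Egf (0.99), Cldn3 (0.98) and Chst5 (0.98). Egf itself was at 14.2 ± 5.18 CPM in OVXE2, 7.40 ± 2.66 in OVX and 13.5 ± 6.88 in Sham (SD, n = 4), with a log2 difference of 0.94 ± 0.41 between OVXE2 and OVX (edgeR adjusted p = 0.342). Gingival Pgr was most like D3Ertd751e (0.95), Eya1 (0.86) and Tspoap1 (0.84), Esr1 most like Tmem8b (0.92), Nup210 (0.90) and Trdn (0.87), Ramp3 most like Rbm12b2 (0.91), Gpr27 (0.90) and Zfp984 (0.89), and Areg most like Aste1 (0.84), Tex30 (0.84) and Mettl9 (0.80). No gene was named for the same member in both tissues.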

How the data were processed

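Poly(A) RNA-seq gene counts of 24 mouse libraries were analysed, 4 for each of 3 groups in gingiva and in the DAC. The deposited values are raw counts per gene, 1 table per library. Per the submitters' processing notes, reads were processed with fastp, STAR and DESeq2 on GRCm38 (mm10). Their versions and the annotation are not given in the sources used. Each table gave counts of either strand and of each strand, and the deposited counts of the strand that held most reads were used. The other strand held 3.38 to 9.03% of gene counts. In the deposited tables, 4 lines of reads assigned to no gene took 30.5 to 42.5% of all and were left out. GENCODE M21 named 38186 of 38321 IDs.

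After filterByExpr and TMM scaling, genes were tested with the quasi-likelihood test of edgeR 4.0.16 in R 4.3.3, with Benjamini-Hochberg adjustment over all genes and a threshold of 0.05. Gingiva (12680 genes) and DAC (13617 genes) were fitted over their 12 libraries each, with 9 residual degrees of freedom, and tissue comparisons over all 24 (14209 genes, 18 degrees of freedom). CPM are TMM-scaled within a tissue unless all 24 libraries are named. The standard error of a log2 change was its size divided by the square root of F. The test was checked on simulated counts. Alternatives were DESeq2 1.42.0, median-ratio scaling, no filter, the replicate block, counts of either strand, only the groups compared, and libraries left out. Leaving out the 4 DAC libraries with the most brain neuron counts, and keeping only libraries with an other-strand share of at least 5%, were added after seeing the data.

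The 4 libraries of a group are called biological replicates in the labels without tying them to animals. The p-values set group differences against the spread between these samples, and whether that is the spread between animals is not known. No library was a near copy of another of its group. The members and gene lists were chosen with earlier results of these data known. All 5 members are named in every comparison. Of each list, up to 4 called genes with the smallest p are taken, or up to 2 as values, and not all of these are printed. For each member and tissue, the 3 genes with the highest Pearson r of log2 CPM (prior count 2, mean of at least 1, no predicted genes) are named. Summed marker shares are percent of gene counts. Listed genes that the tables did not hold are not analysed here.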

Additional observations from a re-analysis of the deposited data

Results flagged for a closer look

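In gingiva, Pgr in OVX 2 was low at 18.3 CPM, below the other OVX libraries at 23.6 to 24.6 CPM. Its gap to the nearest of them was 0.840 of the group's range, above the 95% critical value of Dixon's test for 4 samples (0.829). In the DAC, Areg in OVXE2 4 was high at 7.44 CPM, against 1.57 to 2.38 in the other OVXE2 libraries, with a gap of 0.862 of the range. These were 2 of 30 groups examined, and chance flags about 1 in 20. In the interaction test, the log2 change of Pgr for OVXE2 against OVX was larger in the DAC than in gingiva by 2.20 (edgeR adjusted p = 0.0444). That call was lost in 20 of 32 alternatives, and the DAC OVX libraries held 8 to 31 Pgr reads. The difference is one of ratios: mean CPM in OVXE2 and OVX was 4.18 and 0.806 in the DAC, and 25.7 and 22.7 in gingiva.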

How the results depend on the processing

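Of 1553 values of the members under alternatives, 1429 kept their direction and their side of the threshold, 74 lost a call, 7 gained one and 43 changed sign; no member that was called changed direction. For OVXE2 against OVX in the DAC, 3 members were called, and 0 with only the groups compared or in the libraries of higher other-strand share, 1 without OVX 1 and the shallowest library, 1 without the 4 libraries with most brain neuron counts, and 0 to 2 with 1 library left out (0 without OVX 4 or OVXE2 1). For OVXE2 against Sham, 2 were called, and 1 with only the groups compared, 1 without OVX 1 and the shallowest library, 0 without the brain-rich libraries, 0 in the higher other-strand set, and 0 to 2 with 1 left out. The edgeR adjusted p of Pgr was 0.0986 against OVX and 0.302 against Sham without the brain-rich libraries, and 0.212 and 0.171 in the higher other-strand set, with fewer libraries in each fit. The tissue difference of OVXE2 against OVX had 1 called member, and 0 with the replicate block, without the brain-rich libraries and in the higher other-strand set, and 0 to 1 with 1 left out. That against Sham had 0, and 1 by DESeq2, with median-ratio factors and with counts of either strand, and 0 to 1 with 1 left out. Unless the construction shows it, the cause was not tested.

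Over all genes, calls for OVXE2 against OVX in the DAC numbered 290, and 598 by DESeq2, 189 with only the groups compared, 122 without the brain-rich libraries and 39 in the higher other-strand set, and 186, 178 and 176 without OVX 4, OVXE2 1 or OVXE2 4. Against Sham they numbered 143, and 340, 64, 37 and 16 under the same settings, and 61 to 164 with 1 left out, lowest without Sham 1, and 70 to 93 without any other 1 Sham library or without OVXE2 1, 2 or 4. The tissue differences had 27 calls against OVX and 9 against Sham, and 108 and 64 by DESeq2, 2 and 0 in the higher other-strand set, 15 to 33 and 4 to 37 with 1 left out (15 without gingival OVXE2 1, 4 without gingival OVXE2 2 and 37 without DAC OVXE2 3). Without the brain-rich libraries the tissue difference against Sham had 5 calls, with counts of either strand 17, and without OVX 1 and the shallowest library 6. In gingiva OVXE2 against OVX had 0 calls, 2 with no filter and 60 without OVX 3.

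Same-numbered libraries of different groups had a mean correlation of 0.0068 in the DAC, −0.027 in gingiva and −0.034 across the tissues (−0.32 to 0.24). Libraries of different numbers had −0.0026, 0.0091 and 0.012, so the numbers left no mark of pairing in these means. Such means cannot exclude a shared mouse, since the tissues are unlike. The labels do not say whether same-numbered gingiva and DAC libraries come from the same mouse, and the tissue comparisons take them as separate. With the replicate block, calls were 250 against OVX and 101 against Sham in the DAC, 2 for OVXE2 against OVX in gingiva, and 9 and 1 for the tissue differences, and the log2 changes against OVX in the DAC were 2.32 for Pgr, 0.62 for Stc2 and −0.57 for Esr1 (edgeR adjusted p = 0.0237, 0.0294 and 0.0903). The tissue difference of Pgr for OVXE2 against OVX was then 2.19 (edgeR adjusted p = 0.0974).

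Values that changed sign were uncalled. Gingival Areg for OVXE2 against OVX was −0.00701 with the replicate block and −0.00336 with either strand. In the DAC for OVX against Sham, Pgr was −0.088 and Stc2 −0.014 without the brain-rich libraries, and Stc2 −0.00274 and Ramp3 0.31 in the higher other-strand set. Without the brain-rich libraries Areg was 0.26 for OVXE2 against Sham in the DAC, 0.17 for its tissue difference, and Pgr −0.018 for the tissue difference of OVX against Sham. In the higher other-strand set the tissue differences were −0.12 for Areg against OVX and −0.38 for Stc2 against Sham. With 1 library left out, the log2 values ranged as follows. In gingiva for OVX against Sham, Esr1 ranged from −0.000842 to 0.32 and Pgr from −0.18 to 0.17; for OVXE2 against OVX, Esr1 from −0.040 to 0.22 and Areg from −0.14 to 0.15; for OVXE2 against Sham, Pgr from −0.00335 to 0.35. In the DAC for OVX against Sham, Pgr ranged from −0.16 to 0.37, Stc2 from −0.075 to 0.10 and Ramp3 from −0.29 to 0.013; Areg from −0.050 to 0.93 for OVXE2 against OVX and from −0.86 to 0.13 against Sham, where Ramp3 ranged from −0.047 to 0.39. DAC against gingiva in Sham, Stc2 ranged from −0.10 to 0.44. Tissue differences ranged from −0.057 to 0.46 for Pgr (OVX against Sham), −0.063 to 0.96 for Areg (OVXE2 against OVX), −0.000221 to 0.58 for Stc2 and −0.98 to 0.046 for Areg (OVXE2 against Sham). Depth limits Pgr in the DAC and Ramp3 in gingiva most, with as few as 8 and 11 reads in a library.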
